A study of Mus musculus with 20 samples.

Results

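Mitochondrial ribosomal protein genes were examined in left ventricle of mice with and without deletion of the acetyl-CoA carboxylase ACC2, on chow and on a high-fat diet (HFD). They were taken as every gene whose symbol is Mrpl or Mrps followed by a number and at most 1 further letter, with at least 0.5 FPKM (fragments counted per length of transcript and depth of library) in at least 5 of the 20 libraries. All 77 matching symbols passed this minimum, 48 named Mrpl and 29 named Mrps, among 12775 genes that passed it and 25052 listed. The lowest value of any of the 77 in any library was 3.53 FPKM, so no matching symbol lay near the minimum. The only other rows named Mrpl or Mrps were 4 pseudogenes, of which Mrpl23-ps1 was expressed and Mrpl48-ps, Mrps36-ps1 and Mrps36-ps2 did not exceed 0.32 FPKM.

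The mitochondrial ribosome is the machine inside mitochondria that translates the few messenger RNAs encoded by mitochondrial DNA, all of them for subunits of the respiratory chain and ATP synthase. Its RNAs are made from mitochondrial DNA, whereas every one of its proteins is encoded in the nucleus, made in the cytosol and imported. It has a large subunit, which joins amino acids and holds the exit tunnel, and a small subunit, which reads the messenger. Some of its proteins descend from bacterial ribosomal proteins and others were acquired in mitochondria. Heart muscle, which depends on oxidative phosphorylation, is rich in these ribosomes.

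Each of the 4 groups held 5 male mice. All carried floxed Acacb alleles (ACC2f/f), and all received 20 mg/kg tamoxifen by intraperitoneal injection for 5 days at 8 weeks of age. The knockout group, called iKO, also carried MCM (MerCreMer), a Cre recombinase that tamoxifen activates, and the littermates without Cre are called WT. From 4 weeks after the last injection the animals were kept for 16 weeks on either chow or the purified HFD, D12492 of Research Diets. The promoter that drives MCM is not stated in the sources used here, and no group carried Cre without floxed alleles, so that loss of ACC2 and the presence of Cre cannot be told apart. Every library numbered up to RT10 was from chow and every later one from HFD, with no batch given, so that diet and any difference between those runs of numbers cannot be told apart.

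Acacb, the gene of ACC2, was checked first. It averaged 38.6 and 37.8 FPKM in WT on chow and on HFD, and 8.95 and 10.6 in iKO. Esr1, whose ligand-binding part MerCreMer carries, averaged 1.41 and 0.838 FPKM in WT and 1086 and 813.0 in iKO. Assigned reads, estimated from the steps between low values, ranged from 12.5 to 31.9 in units of 1e6 reads per library, with a median of 22.4. All 10 cardiomyocyte marker genes were expressed, none of 6 white adipocyte markers passed the minimum, and atrial muscle markers summed to between 21.4 and 691 FPKM across libraries. Library RT19 (WT on HFD) stood apart, with the lowest median-of-ratios factor (0.893, against 0.944 to 1.138 in the other libraries) and the lowest quality weight (0.36). At the other end, RT4 (iKO on chow) had the highest factor (1.138) and the next lowest weight (0.467). Values without RT19 stand beside several of the results on HFD.

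The 77 genes are scattered over 17 chromosomes, and sequences around their RefSeq starts are shown first. RefSeq promoters on GRCm38.p6, from 250 bases before to 50 bases after the annotated start, were matched by symbol for 68 of the 77. The 5 below belong to members whose values the comparisons turn on: Mrps15, Mrps27 and Mrpl33 for the diet, and Mrps33 and Mrpl39 for the genotype. Each runs 5′ to 3′ on the gene's strand, and capitals mark a match to 1 of 3 letter strings. Those of Mrpl33 and Mrpl39 lie inside the gene's span in the annotation used here for coordinates, whose outer start differs from that of RefSeq.
Mrps15 (chr4:126046678-126046977, plus strand): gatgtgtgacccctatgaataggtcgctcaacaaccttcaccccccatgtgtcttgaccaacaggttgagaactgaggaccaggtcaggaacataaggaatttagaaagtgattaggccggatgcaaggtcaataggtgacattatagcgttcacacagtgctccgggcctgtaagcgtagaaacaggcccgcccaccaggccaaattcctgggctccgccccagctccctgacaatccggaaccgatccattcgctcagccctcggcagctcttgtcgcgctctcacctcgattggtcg
Mrps27 (chr13:99344536-99344835, plus strand): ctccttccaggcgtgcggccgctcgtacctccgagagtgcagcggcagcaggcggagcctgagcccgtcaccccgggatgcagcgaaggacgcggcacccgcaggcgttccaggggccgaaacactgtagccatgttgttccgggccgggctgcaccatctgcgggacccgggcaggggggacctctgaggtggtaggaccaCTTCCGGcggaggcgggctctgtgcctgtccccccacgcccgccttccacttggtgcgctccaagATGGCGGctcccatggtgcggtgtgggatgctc
Mrpl33 (chr5:31613701-31614000, plus strand): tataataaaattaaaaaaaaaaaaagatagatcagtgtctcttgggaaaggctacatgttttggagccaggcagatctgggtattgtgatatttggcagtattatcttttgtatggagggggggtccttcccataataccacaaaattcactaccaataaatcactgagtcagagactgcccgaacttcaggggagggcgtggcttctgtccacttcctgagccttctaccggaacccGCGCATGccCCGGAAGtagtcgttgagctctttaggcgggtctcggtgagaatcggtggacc
Mrps33 (chr6:39810887-39811186, minus strand): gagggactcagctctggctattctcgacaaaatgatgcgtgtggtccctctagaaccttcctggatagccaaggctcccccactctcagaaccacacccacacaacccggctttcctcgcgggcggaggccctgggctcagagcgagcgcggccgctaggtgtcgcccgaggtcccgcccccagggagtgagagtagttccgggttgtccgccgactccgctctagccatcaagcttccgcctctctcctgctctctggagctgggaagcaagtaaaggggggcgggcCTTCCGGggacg
Mrpl39 (chr16:84735195-84735494, minus strand): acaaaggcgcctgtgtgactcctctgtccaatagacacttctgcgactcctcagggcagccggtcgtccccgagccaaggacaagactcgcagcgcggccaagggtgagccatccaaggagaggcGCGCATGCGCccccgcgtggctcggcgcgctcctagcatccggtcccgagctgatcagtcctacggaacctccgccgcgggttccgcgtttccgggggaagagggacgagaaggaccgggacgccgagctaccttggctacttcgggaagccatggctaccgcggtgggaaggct

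The strings were CCGGAAG, the core bound by ETS family factors, CATGCGC, part of the site of NRF1, a regulator of nuclear genes for mitochondria, and ATGGCGG, the core of the YY1 site. Both strands were searched. The ETS string was in 25 of the 68 promoters (36.8%), against 9.93% of 27025 genes of the table. The YY1 string was in 13 (19.1%, against 4.69%) and the NRF1 string in 8 (11.8%, against 4.41%). At least 1 of the 3 was in 36 of the 68 (52.9%), against 16.8% of all genes. The median GC content was 58.2% in the members' promoters and 52.7% in all, a difference that these shares are not adjusted for. Genes below the expression minimum were not left out of the 27025, whereas all members passed it, so expression is not matched either.

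Among the promoters shown, Mrps15 held none of the 3 strings. Mrps27 held the ETS string 48 bases before the start and the YY1 string 17 bases after it. Mrpl33 held the NRF1 string 12 bases and the ETS string 3 bases before the start. Mrps33 held the ETS string 38 bases after the start. Mrpl39 held the NRF1 string on both strands, in matches that overlap, 125 and 122 bases before the start. Of the members called lower on HFD over both genotypes, described later, 16 of the 30 with a promoter held a string, and of the remaining members 20 of 38. A match describes letters only, and no match says only that these letters are not in this window.

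**Figure D1:**
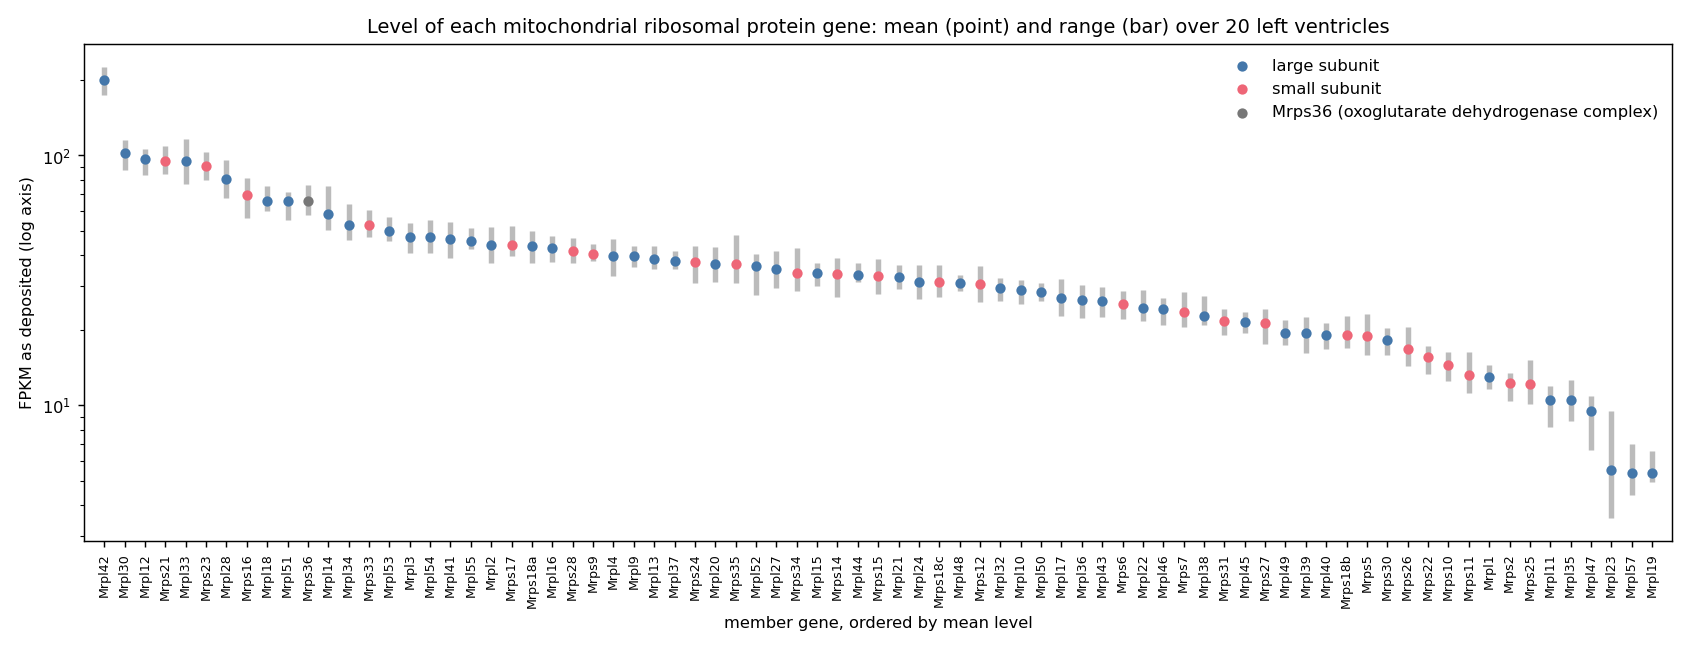
FPKM as deposited (log axis) of each of the 77 genes, ordered by mean, with the mean over 20 libraries as a point and the range as a bar. Mrpl42 stands at the top with a mean of 200 FPKM, and Mrpl23, Mrpl57 and Mrpl19 at the bottom between 5.37 and 5.49 FPKM, that of Mrpl23 being without the reads given to Mrpl23-ps1.

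The 77 genes were expressed in every library, but at unequal levels. FPKM is a value per length, so that levels can be compared between genes. Mean levels ran from 5.37 to 199.9 FPKM with a median of 33.0, and 73 of the 77 averaged 10 FPKM or more. The genes of highest level were Mrpl42 (200 FPKM), Mrpl30 (103), Mrpl12 (96.9) and Mrps21 (95.4), and these 4 made up 16.7% of the summed level. Mrpl42 is a protein specific to the mitochondrial large subunit, Mrpl30 has a bacterial homolog, and Mrpl12 forms the flexible stalk that recruits translation factors. The genes of lowest level were Mrpl19 (5.37 FPKM), Mrpl57 (5.38), Mrpl23 (5.49) and Mrpl47 (9.51). The place of Mrpl23 depends on how reads were divided between it and the pseudogene Mrpl23-ps1, described later. The plot of levels shows that the lowest 3 overlapped in range with one another, as did Mrpl30, Mrpl12 and Mrps21, while Mrpl42 overlapped with none.

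Levels are given next by place in the ribosome. The median of the members' mean levels was 33.5 FPKM over 50 large-subunit proteins and 30.9 FPKM over 26 small-subunit proteins. It was 33.6 FPKM over 46 proteins with a bacterial homolog and 27.3 FPKM over 30 proteins specific to mitochondria. These counts place Mrps18a and Mrps30 in the large subunit, where structures show them in spite of their names. They leave out Mrps36, which averaged 65.6 FPKM and is now assigned to the oxoglutarate dehydrogenase complex of the citric acid cycle. The 3 Mrps18 proteins, all related to bacterial protein S18, stood at 43.6 FPKM (Mrps18a), 31.0 (Mrps18c) and 19.2 (Mrps18b), and only Mrps18c is counted above as having a bacterial homolog. Mrps12, a protein of the decoding site, averaged 30.7 FPKM, and Mrpl45, which tethers the ribosome to the inner membrane, 21.6.

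Between mice of a group the typical member varied less than the typical gene. The median residual SD of log2(FPKM + 1) was 0.089 over the 77, against 0.122 over all genes tested and 0.107 over 6143 genes within the same range of level. Mrpl9 had the smallest at 0.051 and Mrpl23 the largest at 0.288, followed by Mrps34 at 0.166. Summed over the 77 genes, the level was 3054 FPKM ± 77.4 (SD, n = 5) in WT and 3081 ± 93.3 in iKO for chow, and 2867 ± 172 and 2820 ± 45.4 for HFD. In WT on HFD, RT19 stood at 3147 FPKM and the other 4 libraries between 2674 and 2853, with a mean of 2797 ± 83.1. Between 0.32% and 0.401% of all FPKM fell on these genes.

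All differences below are log2 fold changes of log2(FPKM + 1) with limma's SE, and a gene is called at an adjusted p under 0.05 (limma, Benjamini-Hochberg over all genes tested). The scale understates changes of low genes. FPKM summed to between 780768 and 874125 per library, and within such a total a larger share of some RNAs leaves less for the others. RNAs encoded by mitochondrial DNA took 30.1% to 33.9% of FPKM on chow and 34.2% to 36.5% on HFD. A second scale, dividing each library by the median ratio of its genes to their geometric means (median-of-ratios), centres the typical gene instead, and each comparison is given on both. The comparisons of genotype and of diet share groups, so that they are not independent of one another.

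The first comparison asked how the genotype bears on these genes within each diet, and on neither diet did any of the 77 pass the test. On chow the median difference, iKO less WT, was 0.015, against 0.050 over all genes, and on HFD -0.013 against 0.063. Without RT19 the median on HFD was 0.032, against 0.048 over all genes. Limma called 1.06% of all genes on chow and 0.172% on HFD as deposited. At an unadjusted p under 0.05 the members numbered 2 higher and 0 lower on chow, and 2 higher and 3 lower on HFD. The share of all genes at that unadjusted threshold was not counted. The 95% intervals of 76 of the 77 lay within 0.32 of 0 on the log2 scale on each diet, the exception being Mrpl23.

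The smallest p-values on chow belonged to Mrpl23 (0.48 ± 0.17 SE) and Mrpl54, a stalk protein (0.13 ± 0.05), among the higher, and to Mrpl39 (-0.09 ± 0.05) and Mrpl55 (-0.09 ± 0.05) among the lower. On HFD they belonged to Mrpl23 (0.46 ± 0.17), Mrps27 (0.12 ± 0.05), Mrps33 (-0.14 ± 0.05) and Mrpl39 (-0.14 ± 0.05). Adjusted p of these by limma lay between 0.224 and 0.421, so none of these differences held up against the spread between mice once all genes were counted.

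After median-of-ratios scaling the members' medians were -0.048 on chow, where the deposited one was above 0, and -0.089 on HFD, while the medians of all genes were -0.001 and 0.002. The difference was below 0 for 58 of 77 members on chow and 69 of 77 on HFD, against 50.4% and 49.5% of all genes. Again no member was called in either diet, where limma called 1.16% and 0.196% of all genes. At an unadjusted p under 0.05 the scaled members numbered 1 higher and 7 lower on chow, and 1 higher and 20 lower on HFD. Without RT19 the latter were 0 and 8. The share of all genes at that unadjusted threshold was not counted, so these counts describe the members alone. On HFD the members of RT19 stood high after scaling: only 2 of the 77 were below their own mean there, and their median deviation was 0.23 against -0.06 to 0.03 in the other 4 WT libraries on HFD. Without RT19 the scaled median on HFD was -0.027, and 53 of 77 members were below 0.

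**Figure D2:**
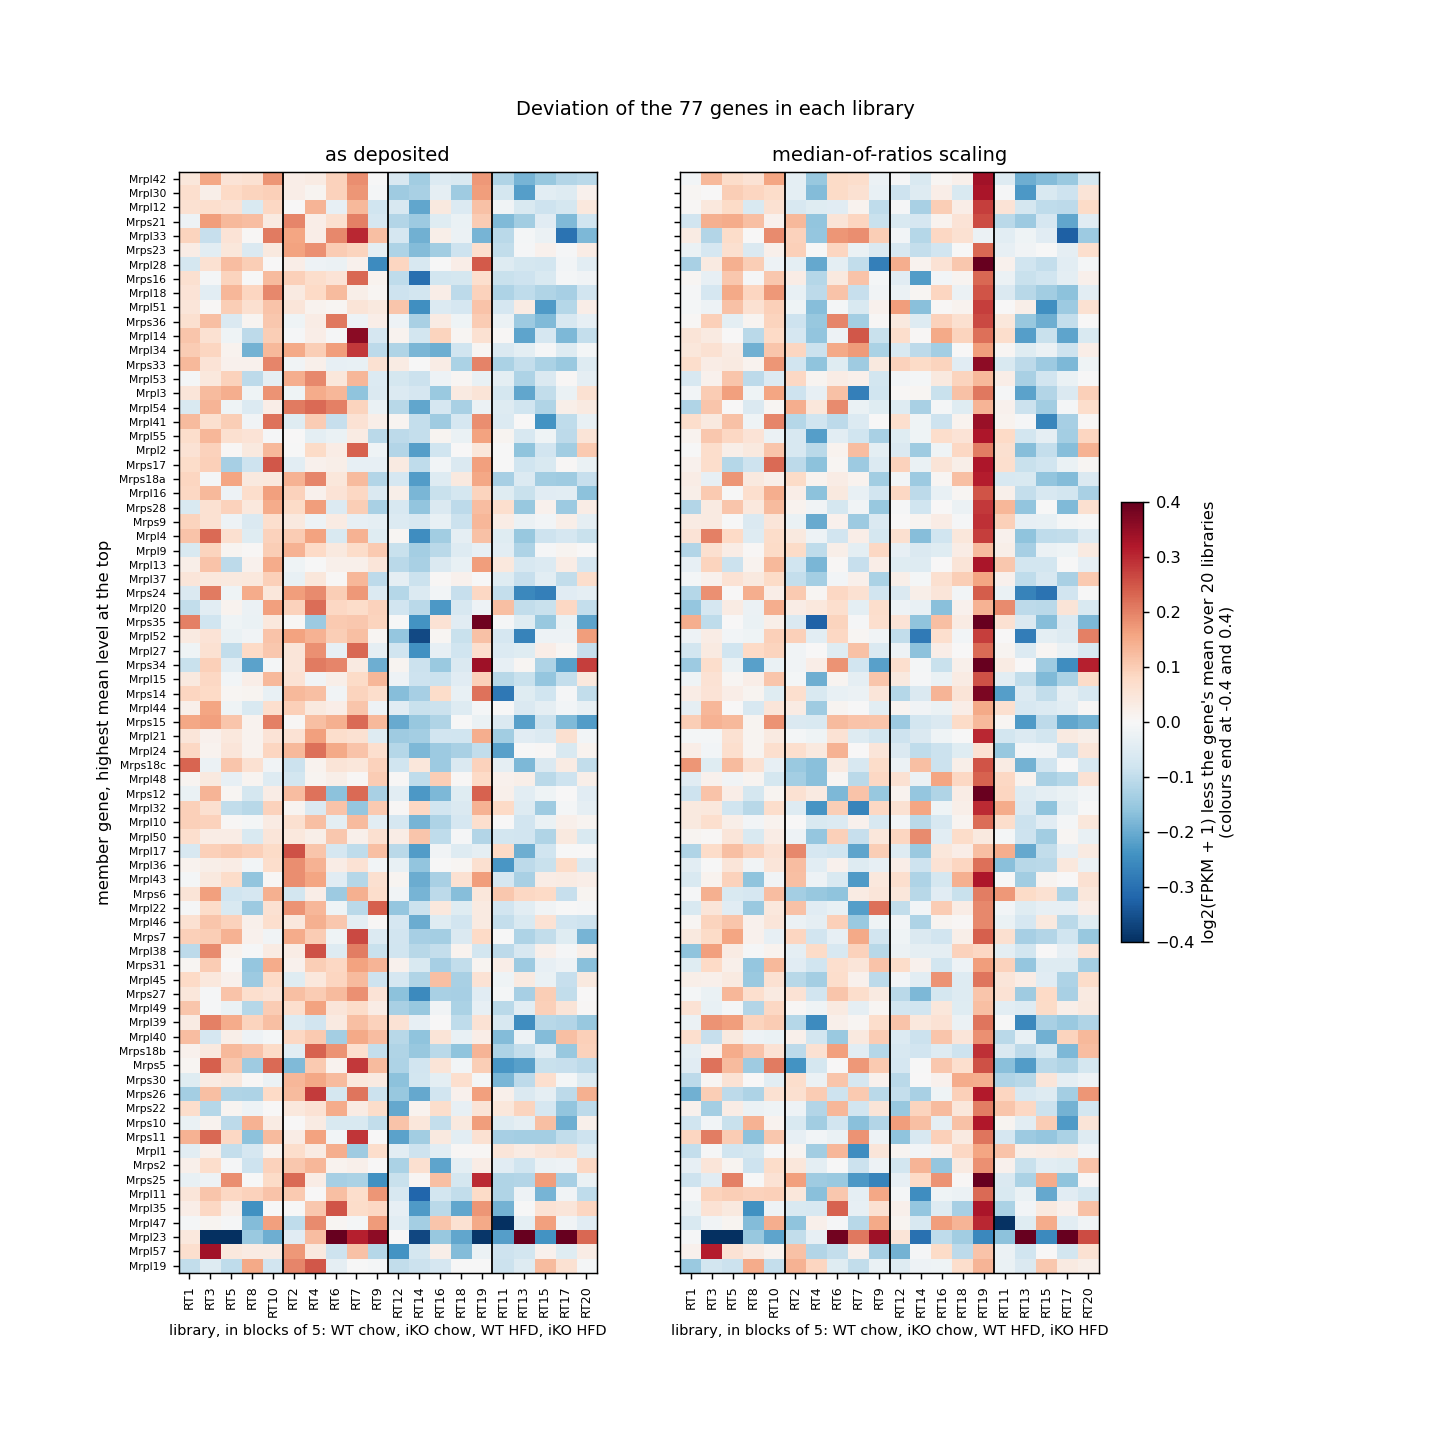
Log2(FPKM + 1) of each of the 77 genes less its mean over 20 libraries, as deposited (left) and after median-of-ratios scaling (right), with libraries in blocks of 5 by group and red for higher. As deposited the HFD blocks are bluer than the chow blocks except RT19, and after scaling RT19 alone is red for 75 of the 77 genes.

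Over both diets, the genotype difference was called for 1 gene as deposited. Mrpl23, a protein at the mouth of the exit tunnel with a bacterial homolog, was higher in iKO by 0.47 ± 0.12 SE (limma adjusted p = 0.0305). Its FPKM were 5.48, 3.58, 3.53, 4.67 and 4.49 in WT on chow, and 5.1, 5.86, 7.29, 6.8 and 7.06 in iKO on chow. With HFD they were 5.3, 3.89, 4.66, 4.45 and 3.8 in WT, and 4.4, 9.46, 4.33, 9.2 and 6.38 in iKO. The groups overlapped on both diets, and on HFD iKO libraries RT13 and RT17 were high while RT11 and RT15 sat among WT. No member was called lower. Over all genes the calls were 4.01% higher and 1.16% lower. The call was lost without any 1 of RT3, RT5, RT13, RT17, RT18 or RT19 (highest adjusted p 0.059) and after scaling (adjusted p = 0.0608).

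This value is uncertain, because most of the Mrpl23 messenger has a perfect copy. Mrpl23 (ENSMUSG00000037772.13, chr7:142532686-142540747 on GRCm38) has 5 exons and a coding transcript of 736 bases. Mrpl23-ps1 (ENSMUSG00000075279.5, chr2:74591330-74591909, minus strand) is a processed pseudogene of 1 exon and 580 bases. The aligned stretch of 507 bases, which holds 421 of the 516 coding bases of Mrpl23, has 0 mismatches, so that all 408 windows of a 100-base read within it are identical and such a read cannot be placed by its sequence. A stretch of read length shows what both genes give, from base 228 to base 327 of the Mrpl23 transcript.
Mrpl23 and Mrpl23-ps1: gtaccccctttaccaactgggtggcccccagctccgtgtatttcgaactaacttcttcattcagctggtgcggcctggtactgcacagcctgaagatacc

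The pseudogene row carried most of the signal. Mrpl23-ps1 had a mean FPKM of 56.6 ± 7.28 in WT and 56.1 ± 4.34 in iKO for chow, and of 48.6 ± 5.88 and 46.6 ± 4.62 for HFD (SD, n = 5 each). Mrpl23 made up 7.25%, 10.3%, 8.43% and 12.8% of the sum of both in the same order. The sum was 60.9 ± 7.04 and 62.5 ± 4.33 FPKM in WT and iKO on chow, and 53.0 ± 5.81 and 53.3 ± 2.28 on HFD. Tested as a sum, a choice made after the values were seen, the genotype difference was 0.03 ± 0.05 SE (limma adjusted p = 0.761) and is not called. Estimated reads on Mrpl23 numbered between 44 and 178 per library. The same sum was lower on HFD over both genotypes by -0.21 ± 0.05 (adjusted p = 0.00624), and not called after scaling (-0.11 ± 0.06, adjusted p = 0.228). The annotation holds 22 near-identical copies of 17 members at other places (at least 95% identity over at least 100 bases). Of these 8 had a row, and among the 8 only Mrpl23-ps1 reached 0.5 FPKM. The level of the other 14, which copy 12 members, was not analysed here, and whether reads were divided with them was not tested. Mrps33, Mrpl42, Mrps21, Mrps18b and Mrps36, named with values here, are among the 12.

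**Figure D3:**
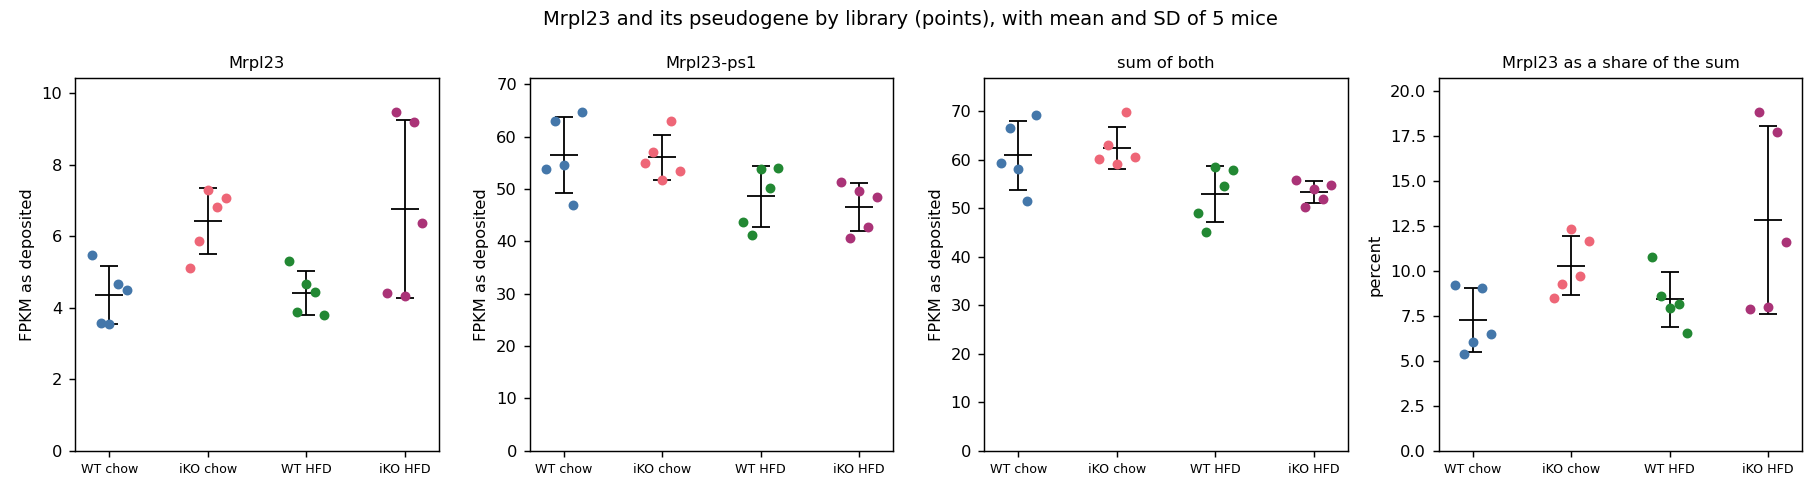
FPKM as deposited of Mrpl23, of Mrpl23-ps1 and of their sum, and the share of Mrpl23 in the sum (percent), by group, with each library as a point and the mean and SD of 5 mice in black. Mrpl23 and its share differ between genotypes in mean, while the sums of WT and iKO overlap on each diet.

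After median-of-ratios scaling 3 other members were called lower in iKO over both diets, and none higher. They were Mrps33, specific to the small subunit of mitochondria (-0.18 ± 0.04 SE, limma adjusted p = 0.0208), Mrpl39, at the exit tunnel (-0.18 ± 0.04, adjusted p = 0.0229) and Mrpl28, of bacterial origin (-0.17 ± 0.05, adjusted p = 0.048). Mrps33 has a pseudogene elsewhere, Gm5776, that differs by 1 mismatch over all 318 coding bases. Reads that lie within these coding bases and miss that mismatch cannot be placed by their sequence. The level of Gm5776 was not analysed here. Among all genes 0.768% were called higher and 2.39% lower on that scale, and 3 of 77 is 3.9%. As deposited the same genes differed by -0.11, -0.12 and -0.10, with adjusted p of 0.0707, 0.0619 and 0.131. The members' median was -0.069 after scaling, against 0.0004 over all genes, and -0.0008 as deposited, against 0.057. Without RT19 it was -0.046 after scaling and 0.016 as deposited. The scaled members at an unadjusted p under 0.05 were 1 higher and 24 lower, and 1 and 17 without RT19. The share of all genes at that unadjusted threshold was not counted, so an excess among the members is not shown by these counts.

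Scaled values show how far the groups parted. Mrps33 was 55.1, 53.5, 53.8, 52.9 and 59.3 in WT on chow, and 49.6, 46.7, 50.7, 47.4 and 53.9 in iKO on chow. With HFD the gene stood at 55.9, 55.3, 55.9, 50.7 and 67.4 in WT, the last being RT19, and 50.2, 48.7, 47.3, 46.2 and 51.7 in iKO. The groups overlapped by 1 iKO library on each diet. Mrpl39 was 19.14, 22.16, 21.98, 20.75 and 20.97 in WT on chow, and 17.9, 16.2, 19.8, 19.6 and 20.5 in iKO on chow, with 3 iKO libraries inside the WT range. On HFD it was 21.1, 20.1, 20.3, 19.1 and 22.7 in WT, and 19.5, 16.1, 17.7, 17.5 and 17.8 in iKO, with 1 iKO library inside the WT range. Mrpl28 ran from 73.6 to 88.9 in WT and from 66.4 to 78.5 in iKO on chow, and from 81.3 to 107.2 and from 75.4 to 81.5 on HFD, so that these groups overlapped too. Leaving out each library in turn on this scale, Mrps33 was called each time (highest adjusted p 0.0446), Mrpl39 was lost without RT3 or RT13, and Mrpl28 was lost without any 1 of 13 libraries. Without RT19 the scaled call remained for Mrps33 (-0.15, adjusted p = 0.0166) and Mrpl39 (-0.17, adjusted p = 0.0366).

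The next comparison asked how the diet bears on these genes. As deposited, none of the 77 was called higher on HFD and a minority was called lower. In WT 3 were called lower (3.9%, against 7.27% of all genes), Mrps15, Mrps27 and Mrpl24. In iKO 9 were called lower (11.7%, against 8.36%): Mrps15, Mrpl33, Mrpl24, Mrpl42, Mrps24, Mrps21, Mrpl18, Mrpl54 and Mrpl39. Over both genotypes 33 were called lower (42.9%, against 23.3%). Of these, 3 in WT, 5 in iKO and 22 over both were called whichever single library was left out. In iKO Mrps21 was lost without RT2, RT7 or RT11, Mrpl18 without RT4, RT6 or RT11, Mrpl54 without any 1 of 6 libraries and Mrpl39 without any 1 of 11. Genes called higher were 0.767%, 1.65% and 2.55% of all in the same order. The median difference of the members was -0.093 in WT, -0.111 in iKO and -0.097 over both, beside -0.084, -0.072 and -0.079 over all genes. So the members lay below 0 together with most genes, 73 of 77 over both genotypes, where 79.4% of all genes did. Of 10 cardiomyocyte markers, 8 were lower too, and their part in these differences was not tested.

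After median-of-ratios scaling 1 call was left. Mrps15 was lower on HFD over both genotypes by -0.16 ± 0.04 SE (limma adjusted p = 0.0171), and called each time a library was left out (highest adjusted p 0.0391). In WT and in iKO no member was called on that scale. Limma called 2.55% of all genes in WT and 4.38% in iKO there, and over both genotypes 5.41% higher and 4.84% lower. At an unadjusted p under 0.05 the members were 2 higher and 1 lower in WT, and 0 higher and 4 lower in iKO. The share of all genes at that unadjusted threshold was not counted. The members' median was 0.011 in WT, -0.023 in iKO and -0.001 over both. Without RT19, a choice made after its values were seen, the scaled median in WT was -0.038, and the members called lower were 0 in WT, 1 in iKO and 3 over both. As deposited and without RT19 they were 11 in WT, 16 in iKO and 42 over both. The iKO count was 14 without RT14, 17 without RT9 and 6 without RT11. The share of all genes called in fits with a library left out is not given here. Whether all genes moved likewise is therefore not shown. Groups that did not overlap, chow above HFD, were found as deposited for 5 members in WT (all genes 9.99%) and 11 in iKO (all genes 6.41%). After scaling they were found for 0 members in WT (all genes 2.41%) and 1, Mrps11, in iKO (all genes 1.84%).

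**Figure D4:**
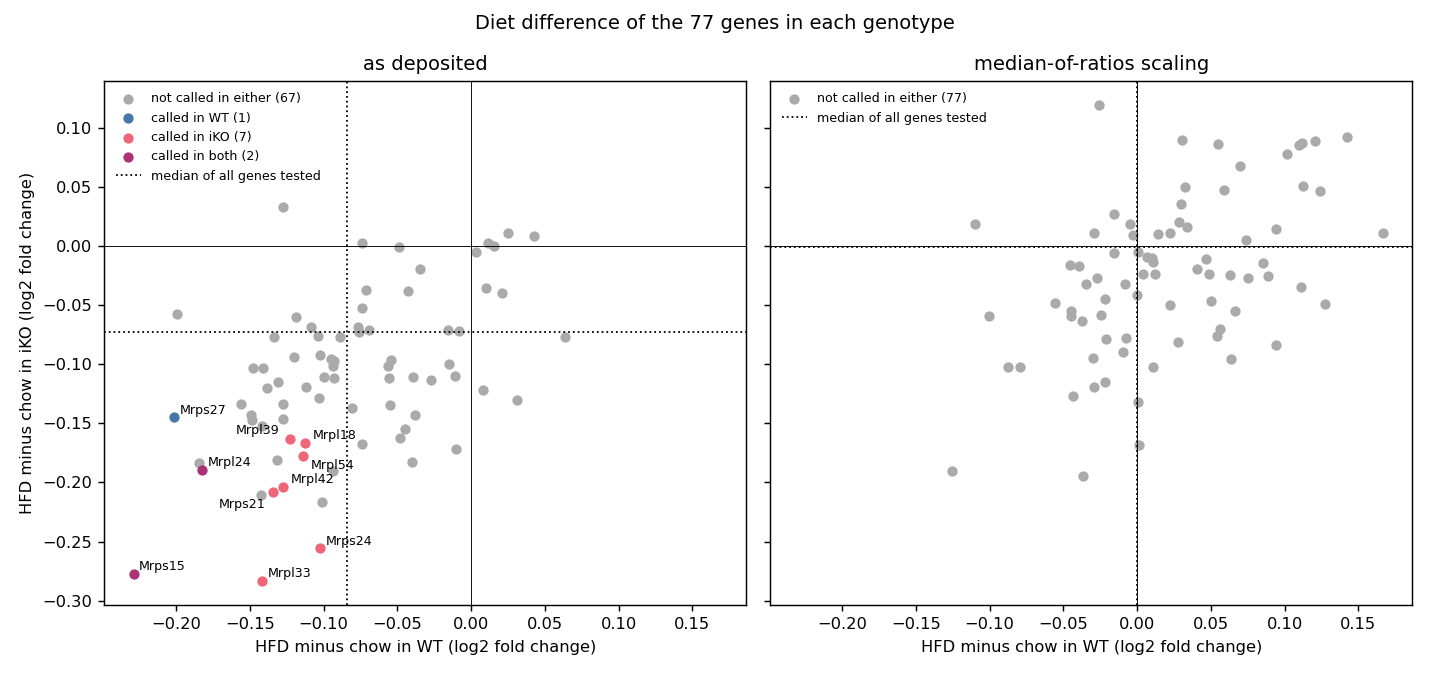
HFD less chow (log2 fold change) of each of the 77 genes in WT (horizontal) and iKO (vertical), as deposited (left) and after median-of-ratios scaling (right), with the median of all genes dotted and called genes coloured. As deposited Mrps15 and Mrpl24 are called in both genotypes, and after scaling the members' medians are 0.011 in WT and -0.023 in iKO with none called.

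Mrps15 was the member with the smallest p for the diet in each genotype and on each scale of the pooled comparison. It encodes a small-subunit protein with a bacterial homolog that binds the small-subunit RNA (ENSMUSG00000028861.13, chr4:126046925-126055532, 8 exons, 258 codons). Its promoter, shown at the start, held none of the 3 strings. Its FPKM were 36.64, 36.86, 35.52, 33.11 and 37.85 in WT on chow, and 28.38, 29.45, 30.14, 32.75 and 32.18 in WT on HFD. In iKO they were 32.95, 35.74, 36.28, 38.56 and 36.03 on chow, and 31.49, 28.08, 30.84, 28.89 and 27.98 on HFD. The groups did not overlap in either genotype. It fell on HFD by 0.23 ± 0.05 SE in WT (limma adjusted p = 0.00987), 0.28 ± 0.05 in iKO (adjusted p = 0.00147) and 0.25 ± 0.04 over both (adjusted p = 4.53e-05). After scaling the mean was 35.6 ± 1.59 and 32.6 ± 2.68 in WT on chow and on HFD, and 34.0 ± 2.31 and 29.7 ± 2.12 in iKO, so that the groups overlapped.

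Mrpl24, a large-subunit protein at the exit tunnel, was called in both genotypes. Its FPKM were 33.12, 31.47, 32.27, 31.48 and 33.2 in WT on chow, and 28.72, 27.42, 28.11, 28.45 and 29.05 on HFD. In iKO they were 34.25, 36.47, 34.78, 33.82 and 32.76 on chow, and 26.68, 31.12, 31.31, 29.87 and 31.5 on HFD. The groups were apart in each genotype, with differences of -0.18 ± 0.04 SE in WT (limma adjusted p = 0.0148) and -0.19 ± 0.04 in iKO (adjusted p = 0.00945). After scaling they were -0.08 and -0.10 (adjusted p = 0.418 and 0.22), and the groups overlapped in each genotype. Its exons (chr3:87919506-87923672) overlap those of Rrnad1 on the other strand, and the kit is not stated to keep strand, so reads of both cannot be told apart there.

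Mrps27 (chr13:99344786-99415562, 11 exons), a small-subunit protein specific to mitochondria that belongs to the pentatricopeptide repeat family of RNA-binding proteins, was called in WT. Its FPKM were 21.95, 21.17, 23.05, 22.29 and 22.09 on chow and 18.85, 17.61, 19.31, 19.28 and 20.52 on HFD, with no overlap. Its exons overlap 6430562O15Rik on the other strand. The difference was -0.20 ± 0.05 SE (limma adjusted p = 0.0133), and -0.10 after scaling (adjusted p = 0.445), where the groups overlapped. In iKO its mean was 23.1 ± 0.763 FPKM on chow and 20.8 ± 1.4 on HFD.

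Mrpl33 (chr5:31596935-31664384, 65 codons), a short large-subunit protein with a bacterial homolog, was called in iKO. Its FPKM were 105.61, 96.54, 108.36, 116.81 and 103.06 on chow and 87.71, 94.08, 93.03, 76.95 and 83.44 on HFD, with no overlap. The difference was -0.28 ± 0.06 SE (limma adjusted p = 0.00693), and -0.19 after scaling (adjusted p = 0.13), where the groups overlapped. In WT it averaged 98.5 ± 7.66 FPKM on chow and 89.1 ± 6.0 on HFD, and the groups overlapped.

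Mrpl42 (chr10:95480805-95501940, minus strand), the member of highest level, fell in iKO from 209 FPKM ± 11.1 on chow to 181 ± 4.14 on HFD, by 0.20 ± 0.05 SE on the log2 scale (limma adjusted p = 0.0122). The iKO libraries spanned 198.97 to 226.82 on chow and 174.9 to 185.01 on HFD. In WT they spanned 205.75 to 225.31 on chow and 180.84 to 224.75 on HFD, where RT19 was the highest. After scaling the iKO difference was -0.11 (adjusted p = 0.378), and the iKO groups overlapped. Its pseudogene copy Gm6419 (96.2% identity over all 426 coding bases) was not analysed here.

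**Figure D5:**
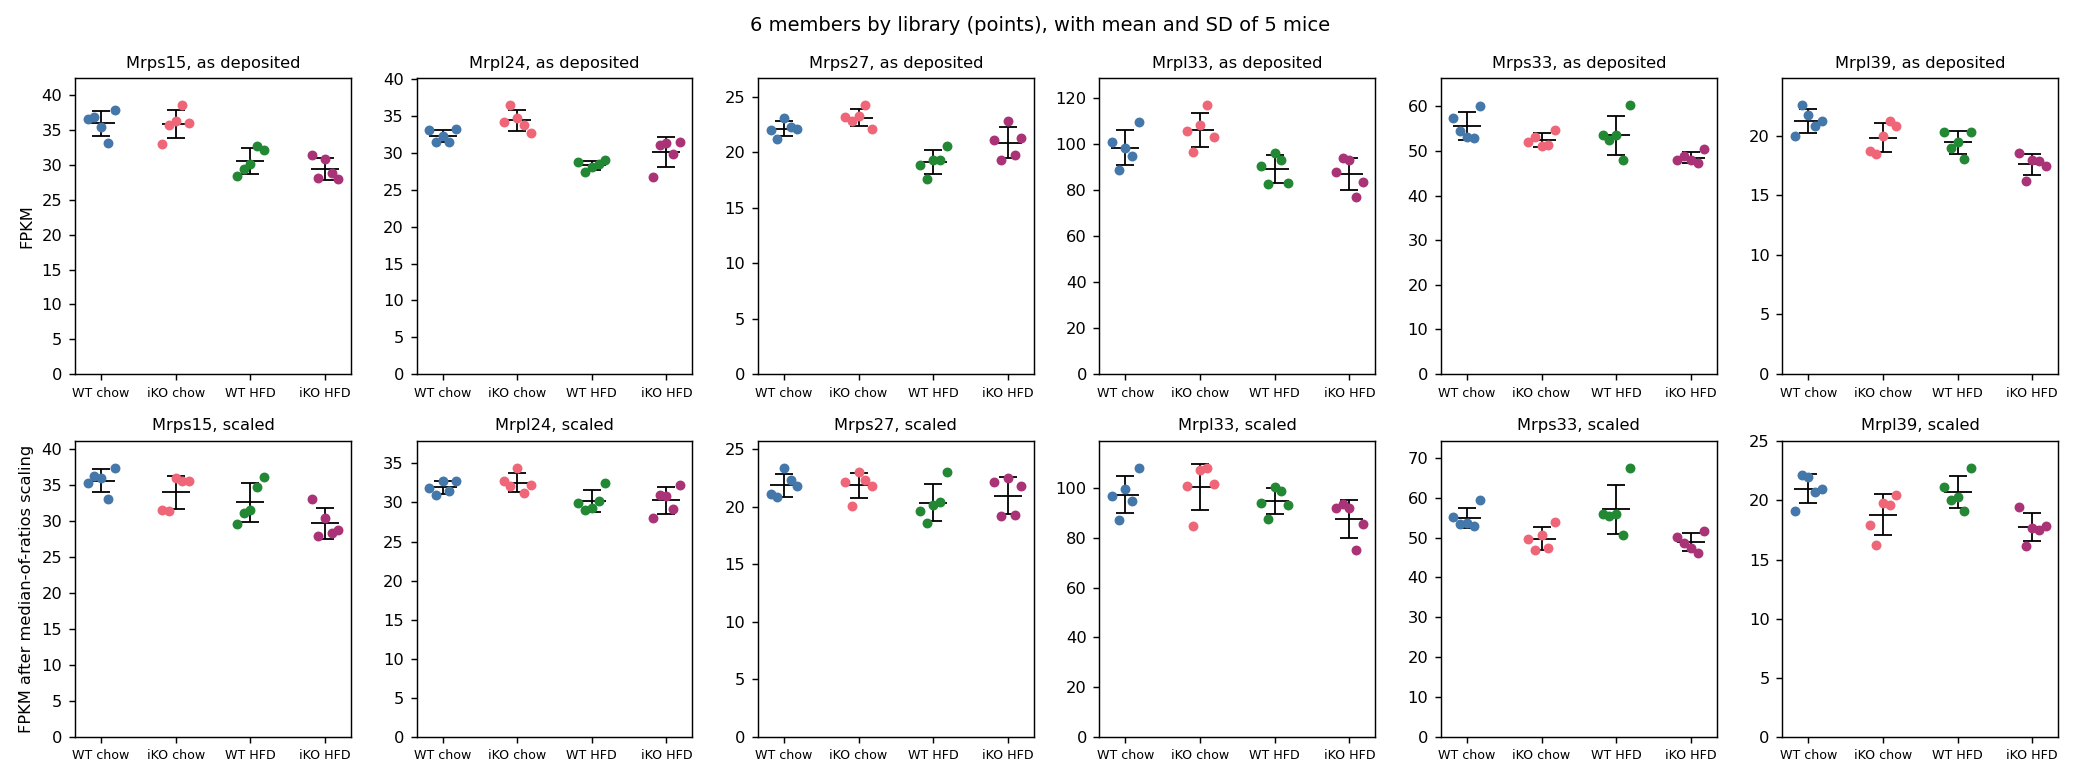
FPKM of 6 members as deposited (top) and after median-of-ratios scaling (bottom) by group, with each library as a point and the mean and SD of 5 mice in black. As deposited, Mrps15 and Mrpl24 on chow lie above HFD in both genotypes without overlap, and after scaling Mrps33 and Mrpl39 in iKO have lower means than WT on both diets.

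The calls were spread over the ribosome. Over both genotypes as deposited, 22 of 50 large-subunit and 11 of 26 small-subunit genes were lower, with medians of -0.099 and -0.093. So were 21 of 46 genes with a bacterial homolog and 12 of 30 specific to mitochondria, with medians of -0.105 and -0.093. Of 5 stalk proteins 3 were lower and of 8 at the exit tunnel 4. Among all genes 23.3% were called lower there. After scaling, 0 of 50 large-subunit and 1 of 26 small-subunit genes were called, with medians of -0.0041 and 0.0024. Among all genes 4.84% were lower on that scale. Mrps18a (-0.14 ± 0.04) and Mrps18b (-0.14 ± 0.05) were called (limma adjusted p = 0.0201 and 0.0284), and Mrps18c stood at -0.10 ± 0.04 (adjusted p = 0.0759). Mrps30, at the top of the large subunit, was called at -0.10 ± 0.04 (adjusted p = 0.0453). Mrps18b was lost without RT4, RT11, RT14 or RT18, and Mrps30 without any 1 of 13 libraries. Mrpl12, Mrpl45, Mrps12 and Mrps36 were not called, at -0.07, -0.04, -0.07 and -0.09. Of the 33 genes called, 11 share exon bases with another coding gene, as do 23 of the 77.

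Whether the genotype difference changed with diet was tested by the interaction. No member was called on either scale, nor as deposited at an unadjusted p under 0.05. Limma called 0.0313% of all genes as deposited and 0% after scaling. The members' median was -0.0151 as deposited, with 66.2% below 0 against 44.6% of all genes. After scaling it was -0.0315, with 79.2% below 0 against 49.3% of all genes. Scaled and without RT19 the median was 0.0037. The members with the smallest p in each direction as deposited were Mrps6 (0.16 ± 0.09 SE), Mrpl57 (0.14 ± 0.10), Mrpl14 (-0.16 ± 0.09) and Mrps24 (-0.15 ± 0.09), each with a limma adjusted p of 0.999. The 95% intervals of 66 of the 77 lay within 0.32 of 0, so for the remaining 11 a larger change is within the interval. Mrps24 as called in iKO and not in WT is therefore not shown to differ between genotypes.

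Other genes of mitochondrial translation were counted in the same way for HFD, pooled over genotypes. Ribosomal proteins under other symbols were lower in 6 of 7 as deposited (median -0.128), among them Chchd1 (-0.19 ± 0.05), Aurkaip1 (-0.21 ± 0.06), Ptcd3 (-0.10 ± 0.03) and Ict1 (-0.16 ± 0.05), a peptide release factor built into the large subunit. Assembly and ribosomal RNA modification factors were lower in 9 of 26, translation factors in 6 of 19 and mitochondrial aminoacyl-tRNA synthetases and amidotransferase subunits in 8 of 20, with none higher. The share of all genes called lower there was 23.3%. Tufm, the elongation factor that delivers aminoacyl-tRNA, differed by -0.17 ± 0.03 SE (limma adjusted p = 0.000383). After scaling, where 4.84% of all genes were lower, the calls were 0 of 7, 2 of 26, 0 of 19 and 1 of 20. Those kept were the pseudouridine synthases Rpusd4 (-0.21, adjusted p = 0.00891) and Trub2 (-0.19, adjusted p = 0.0322), and Ears2, the glutamyl-tRNA synthetase (-0.31, adjusted p = 0.00261).

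The RNAs that mitochondrial DNA encodes were counted likewise. Of 15 messenger and ribosomal RNAs, 8 were higher on HFD over both genotypes as deposited (all genes 2.55%), 1, the small-subunit RNA mt-Rnr1, was lower, and 6 were not called. After scaling 9 were higher (all genes 5.41%) and none lower. mt-Nd2, a complex I subunit, averaged 19020 FPKM ± 378 (SD of 5 mice) for chow in WT and 21770 ± 975 for HFD, and 18260 ± 1456 and 21840 ± 374 in iKO. Its difference was 0.23 ± 0.03 SE (limma adjusted p = 2.56e-05), and 0.33 after scaling (adjusted p = 0.000126). The nuclear subunits of complex I were lower in 20 of 36 as deposited (all genes 23.3%) and in 0 after scaling (all genes 4.84%). Mitochondrial RNAs lie in poly(A) libraries only as far as they carry a tail.

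For the genotype over both diets none of these lists had a call as deposited except Ndufa3 of complex I, which was lower (all genes 1.16%). After scaling 2.39% of all genes were called lower in iKO. Called lower there were Ptcd3 (1 of 7 in its list), the methyltransferase Nsun4 (1 of 26), the recycling factor Gfm2 (1 of 19) and 5 of 36 complex I subunits.

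Among 19 regulators of mitochondrial transcription and biogenesis, 1 was higher (all genes 2.55%) and 3 were lower (all genes 23.3%) on HFD over both genotypes as deposited, and 1 and 1 after scaling (all genes 5.41% and 4.84%). Pprc1, a coactivator of the PGC-1 family, was lower on HFD over both genotypes on both scales (-0.30 ± 0.07 SE as deposited, limma adjusted p = 0.00382, and -0.23 after scaling, adjusted p = 0.0168). Atf5, which drives mitochondrial stress genes, was higher in iKO over both diets (0.42 ± 0.06 SE, limma adjusted p = 0.000469, and 0.35 after scaling, adjusted p = 0.00103). Its relative Atf4 was called as deposited only (0.26 ± 0.06, adjusted p = 0.0159, and 0.19 after scaling, adjusted p = 0.0582). On HFD Atf5 averaged 16.7 FPKM ± 1.5 in WT and 27.4 ± 4.19 in iKO (0.67 ± 0.09 SE, limma adjusted p = 0.000984). For chow it lay between 13.56 and 15.89 in WT and between 14.57 and 19.92 in iKO. No regulator was called for the interaction (Atf5 0.50 ± 0.13 SE, limma adjusted p = 0.399), so its genotype difference is not shown to depend on diet.

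Cell type markers also differed between the groups. The 10 cardiomyocyte markers summed to 35260 to 40210 FPKM on chow and 27800 to 34460 on HFD, with 8 of 10 lower on HFD over both genotypes as deposited and 3 after scaling. The 11 fibroblast markers summed to 383.9 to 467.7 FPKM in WT and 425.6 to 858.5 in iKO on chow, and to 380.4 to 421.5 and 364.9 to 717.7 on HFD. Tcf21 was the only fibroblast marker called for the genotype as deposited, and Col3a1 the only one for the diet. The 5 atrial muscle markers, of which 2 passed the minimum, summed to 57.8 to 691 FPKM in WT and 93.7 to 358 in iKO for chow, and to 21.4 to 69.5 and 41.5 to 115 for HFD. The highest of each genotype were RT1 and RT4, both on chow. For the diet over both genotypes as deposited, 1 of 11 macrophage markers (Lyz2) and 2 of 10 smooth muscle and pericyte markers (Pdgfrb and Abcc9) were lower. Of 10 endothelial markers 1 (Fabp4) was higher, and of 5 erythroid markers 0 were called. Among all genes 23.3% were lower and 2.55% higher there, and 4.84% were lower after scaling. In bulk tissue fewer cells of a type and less RNA per cell cannot be told apart, and the part of these markers in the members' values was not tested.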

How the data were processed

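RNA of frozen left ventricle was sequenced from poly(A) libraries as single reads of 100 nt, per the labels' protocols. The deposited values are FPKM per gene, with 2 decimals. The submitters' processing notes name Bowtie2, RSEM, DESeq2 and mm9, without roles or versions. The gene IDs are those of a later annotation, so coordinates here were matched by ID to GENCODE M21 (GRCm38), where 60 of 77 members have the same ID version. The notes' mm9 was not used for any position. Strand of the kit is not stated. Assigned reads were estimated from the steps between low FPKM of short single-transcript genes, where 58.5% to 75.8% of values came out whole within 0.05 reads.

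FPKM are not counts, so limma 3.58.1 (R 4.3.3, trend and robust moderation) was fitted to log2(FPKM + 1) of all 20 libraries in 4 groups, for the 12775 genes that reached 0.5 FPKM in 5 or more libraries (12759 after scaling). The 7 contrasts were genotype on each diet, diet in each genotype, their interaction and both pooled effects. Named members were, per contrast, up to 4 called in each direction by smallest p (or 2 where none was called), up to 4 whose call differed between scalings, the 4 highest and 4 lowest in level, and those with a known special role or paralogs. Others are named from counts or overlaps after their values were seen. The fit was tested on simulated data. Alternatives were other scalings, pseudocount, filters, moderation, weights, groups and libraries. The members and lists were chosen with earlier results of these data known.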

Additional observations from a re-analysis of the deposited data

Results flagged for a closer look

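In each group of 5 mice, the FPKM of the named members were examined for a library far from the other 4, with a gap over 0.71 of the group's range. So was the summed level of the 77 members. Of 112 groups examined, 108 for the named members and 4 for the sum, 8 had one, where chance gives about 5%. In WT on chow, Mrpl12 was 92.76 in RT8 against 100.76 to 102.37 in the others, and Mrpl19 was 6.05 in RT8 against 4.92 to 5.13. Mrpl57 was 7.02 in RT3 against 5.5 to 5.66. In iKO on chow, Mrpl14 was 75.16 in RT7 against 55.55 to 59.34, Mrpl28 was 67.44 in RT9 against 79.22 to 82.13, and Mrps36 was 76.0 in RT6 against 64.5 to 66.91. In WT on HFD, RT19 was highest for Mrpl42, at 224.75 against 180.84 to 191.87, and for Mrps18b, at 21.09 against 16.99 to 17.63.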

How the results depend on the processing

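No called value of the members named by rule changed sign under any alternative run, while Mrpl44 and Mrpl53, called lower for diet over both genotypes, stood at 0.01 each after median-of-ratios scaling. The members' median changed sign as follows. Genotype on chow was -0.0292 with upper-quartile scaling, -0.01 without RT4 and RT7, and negative in the 3 median-of-ratios settings, and diet in WT was positive in 2 of them. With library quality weights genotype on HFD was 0.0157, genotype over both diets 0.0048 and the interaction 0.0006. Without RT19 these 3 were 0.0317, 0.0158 and 0.0016. Genotype on HFD was 0.0033 without RT13, and genotype over both diets was above 0 without any 1 of 8 other libraries (RT13 included). Settings that pair scaling with left-out libraries, leave-one-out fits after scaling, and the sum of Mrpl23 with Mrpl23-ps1 were chosen after seeing the data. The cause of the changes below was not tested. Counts of called members below stand without the share of all genes called in the same run, so they describe the members alone.

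Median-of-ratios scaling gave medians of -0.0476 (genotype on chow), -0.089 (genotype on HFD), 0.0106 (diet in WT), -0.0234 (diet in iKO), -0.0691 (genotype over both diets) and -0.0013 (diet over both genotypes). It called 0 lower for diet in WT, 0 for diet in iKO, 1 for diet over both, and 0 higher and 3 lower for genotype over both. Upper-quartile scaling gave medians of -0.0692, -0.0095, -0.0414, -0.0501 and -0.0204 from genotype on HFD on in that order, and called 0, 1 and 2 lower for diet and 0 higher and 2 lower for genotype over both. Median-of-ratios without RT19 gave medians of -0.0476 (genotype on chow), -0.0272 (genotype on HFD), -0.0455 (genotype over both), 0.0037 (interaction), -0.0375 and -0.0234 (diet in WT and iKO) and -0.0284 (diet over both), with 0, 1 and 3 lower for diet and 0 higher and 2 lower for genotype over both. Median-of-ratios without RT1 and RT4 gave -0.089 (genotype on HFD), 0.0084, -0.0395 and -0.0117 for diet and -0.0631 for genotype over both, with 0, 1 and 1 lower for diet and 0 higher and 1 lower for genotype over both.

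As deposited, members lower for diet in WT were 22 with library quality weights and 5 without RT4 and RT7. For diet in iKO they were 5 with only the groups compared and 2 without RT4 and RT7. Over both genotypes they were 21 with no expression filter, 19 without RT1 and RT4 and 18 without RT4 and RT7. Mrpl23 was not called for genotype over both (0 higher) with no filter or without RT4 and RT7.

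Leaving out each library in turn, members lower for diet were 3 to 11 in WT, 6 to 17 in iKO and 24 to 42 over both, and for genotype over both 0 to 2 were higher and 0 to 1 lower. After median-of-ratios scaling the ranges were 1 to 3 lower and 0 to 1 higher for diet over both, and 1 to 4 lower and 0 to 1 higher for genotype over both. No paired analysis was possible because the library numbers are not shared between groups.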

Other observations

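Mrps11 and Mrpl46 lie on opposite strands of chromosome 7 (chr7:78783119-78792989 and chr7:78775236-78783531 on GRCm38) and share exon bases where their starts overlap. The kit is not stated to keep strand, so reads of both cannot be told apart there. Mrps11 averaged 14.1 FPKM ± 1.47 (SD, n = 5) in WT and 14.2 ± 1.39 in iKO on chow, and 12.6 ± 1.1 and 12.1 ± 0.227 on HFD. Mrpl46 averaged 25.5 ± 0.643 and 25.2 ± 1.35 on chow, and 23.1 ± 1.39 and 23.4 ± 1.07 on HFD. Both were lower on HFD over both genotypes as deposited, by -0.18 ± 0.05 SE and -0.12 ± 0.03 (limma adjusted p = 0.0134 and 0.0111), and neither after scaling (adjusted p = 0.306 and 0.709).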
